A study of Mus musculus with 2 samples.

Results

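The genes described here encode the ligands, the receptors and the latent binding proteins of transforming growth factor-β (TGF-β). They are Tgfb1, Tgfb2 and Tgfb3, Tgfbr1, Tgfbr2 and Tgfbr3, and Ltbp1, Ltbp2, Ltbp3 and Ltbp4. They were chosen by name, through probes whose RefSeq transcript accession belongs to one of these genes, and make up 10 of the 20660 genes named on the arrays. The arrays ask how loading alters gene expression in primary chondrocytes. The cells came from C57BL/6J mice aged 6 days and were grown for 48 h in silicon chambers coated with fibronectin. One group was taken before loading, and the other 24 h after 30 min of cyclic tensile strain at 0.5 Hz and 10% elongation. Each group is 1 one-colour array. Differences between single arrays have no replicate check, and for that reason no p-value is given. An unloaded array from 24 h was not analysed here, and effects of loading therefore cannot be separated from those of a further 24 h in culture.

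TGF-β is secreted in a latent form, folded into its own propeptide, and most of it is tied to a latent TGF-β binding protein that anchors it in the extracellular matrix. Once released, the ligand binds the type II receptor, which joins and phosphorylates the type I receptor, and Smad2 and Smad3 then enter the nucleus together with Smad4. In cartilage this pathway is known to hold back chondrocyte hypertrophy and to support matrix synthesis.

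The values are the intensities of array spots after the scanner software's background subtraction. Log2 ratios are those of 24 h over before, with each array scaled to its 75th percentile, which lay at an intensity of 466 on both arrays. The error given with a ratio is the scanner software's own error of both spots, and it covers within-array error only. For a probe with several spots it is the mean over them. It was close to 0.20 for bright probes and larger for dim ones, so a bar of 2 errors is stricter for dim genes. Where a gene has several probes, the brightest stands for it, and 14231 genes in all counted as detected because this probe was well above background on each array. Probes differ in how strongly they bind, so intensities of different genes are not read as relative amounts of RNA. Sums over marker lists include every listed gene with a probe, detected or not, and are only followed from array to array. The brightest gene of a list is the one whose probe read highest on average over the arrays, and a sum need not follow it. All 10 genes were detected, and so were all 15 of their probes. In bulk RNA, fewer cells of a type and less RNA per cell cannot be told apart.

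The label of the cells was checked against markers. All 13 chondrocyte markers were detected, and their summed intensity was 1412338.4 before loading and 1420867.2 at 24 h. The brightest was Col2a1, which encodes the α chain of type II collagen. Its intensity was 499543 before loading and 474876 at 24 h. The nearly equal sums hide markers that moved. Col11a1 fell from 107657 to 60799, a log2 ratio of -0.82, at a spot with 3 neighbours more than 2-fold lower. Matn1 was higher by 0.56, at a spot with 6 such neighbours. Cdh5, Tie1, Tek, Cldn5 and Emcn, which mark endothelial cells, were not well above background on any array, nor were Hbb-bs, Hbb-bt and Alas2 of the erythroid list. Other genes of these 2 lists were detected, with intensities of 12774 and 12375 for Kdr, 111 and 130 for Pecam1, and 63.9 and 59.0 for Hba-a1. All 7 fibroblast markers and 6 macrophage and leukocyte markers were detected too and are described below, so the cells are not shown to be chondrocytes only.

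The ligand transcripts were all higher 24 h after loading. Tgfb2, one of the TGF-β isoforms, went from an intensity of 4120 to 6543 on its brightest probe. The log2 ratio was 0.67 (within-array error 0.20), or 1.59-fold. The second probe of Tgfb2 had intensities of 1689 and 2700 and a log2 ratio of 0.68, so the probes gave nearly the same ratio. The ratio of the brightest probe was above that of 97.6% of all detected genes.

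Tgfb3 is read by 1 probe printed in many spots, of which 8 were used. The spots ranged from an intensity of 3392 to 3601 with a median of 3571 before loading, and from 4782 to 5519 with a median of 5046 at 24 h. The spots of the arrays did not overlap, and the log2 ratio was 0.53 with a within-array error of 0.20 and an SD over spots of 0.05. Tgfb1, the isoform best known in matrix storage, is also read by 1 probe, of which 9 spots were used. They ranged from 168 to 221 with a median of 214 before loading, and from 255 to 313 with a median of 291 at 24 h. Here too the spots did not overlap between the arrays. Its log2 ratio was 0.44 with a within-array error of 0.21 and an SD over spots of 0.12, and all 9 spots had ratios above 0, from 0.31 to 0.66. Spots of a probe share the RNA of their array, so their spread is not a replicate error.

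The receptor transcripts stayed closer to 0. Tgfbr2, the type II receptor that binds the ligand, read 13469 before and 13761 after, for a log2 ratio of 0.03 (within-array error 0.20). Its second probe had intensities of 648 and 584 and a log2 ratio of -0.15. The difference was smaller than the within-array error on both probes, and the mean over the probes was -0.06. Tgfbr1, the type I receptor, had intensities of 1452 and 1428 and a log2 ratio of -0.02 with an error of 0.20. A second, dimmer probe of Tgfbr1 disagreed, with intensities of 45.5 and 69.5 and a log2 ratio of 0.61 with an error of 0.26. The spot of this dimmer probe had 3 neighbours within 100 µm that were more than 2-fold higher at 24 h. The mean over the probes of Tgfbr1 was 0.29, and its brightest probe came to 0.08 when the arrays were scaled to their medians and to 0.09 when they were scaled to spike-in controls, so Tgfbr1 has no settled direction. Tgfbr3, or betaglycan, a co-receptor that presents TGF-β2 to the type II receptor, had intensities of 985 and 1162. Its log2 ratio was 0.24 with an error of 0.20.

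The latent binding proteins went in different directions. Ltbp2, a matrix protein of elastic fibres that, unlike its relatives, does not bind latent TGF-β, fell from an intensity of 3301 to 1409. Its log2 ratio of -1.23 (within-array error 0.20) made it 2.34-fold lower, and it lay above the ratio of only 1.08% of all detected genes. Of the 25 spots within 100 µm of the Ltbp2 spot, 0 were changed more than 2-fold in either direction. Ltbp1, which binds latent TGF-β and targets it to fibronectin and fibrillin in the matrix, was lower by less. Its intensity was 1972 before loading and 1525 at 24 h, and its log2 ratio was -0.37 with an error of 0.20.

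Ltbp3, which is needed for secretion of latent TGF-β in the skeleton, was higher. Its brightest probe had intensities of 5177 and 7076 and a log2 ratio of 0.45 with an error of 0.20, and the second probe had 4030 and 4419 and a ratio of 0.13. The second probe alone therefore lay within its error of 0. Ltbp4, a further matrix protein of elastic fibres that binds latent TGF-β1, had intensities of 1838 and 2080 and a log2 ratio of 0.18, within its error of 0.20. The dimmer probe of Ltbp4 had intensities of 279 and 366 and a log2 ratio of 0.39 with an error of 0.21.

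**Figure D1:**
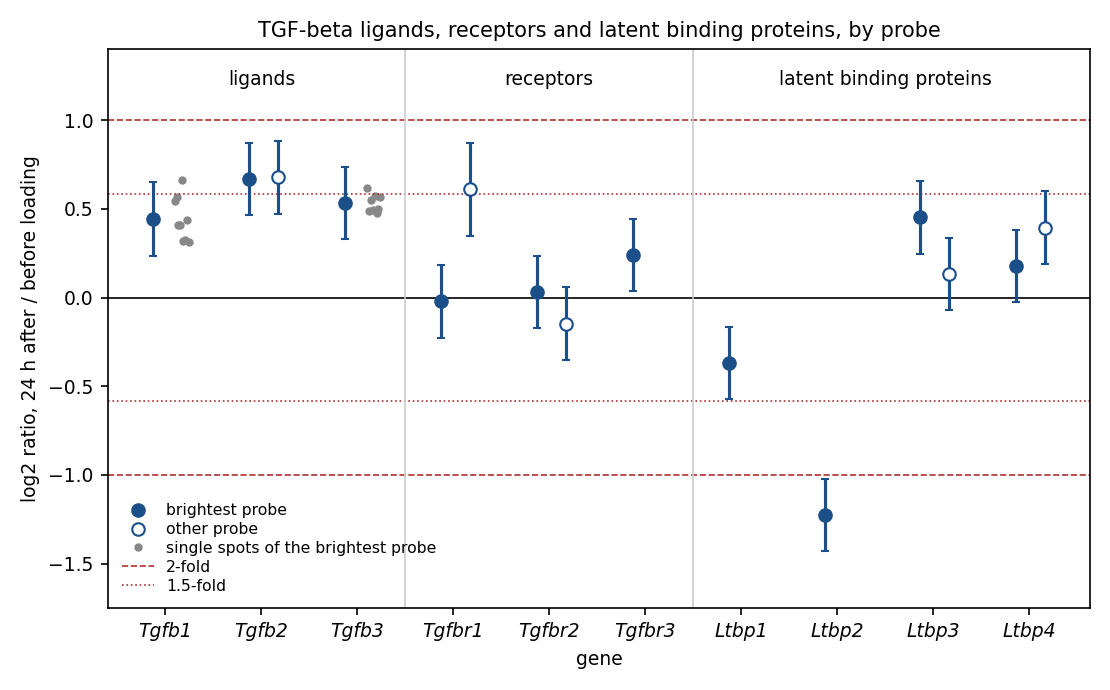
Log2 ratio of intensity, 24 h after over before loading, for every probe of the 10 genes on the y axis, by gene on the x axis. Filled points are the brightest probe, open points the other probes, bars the within-array error of 1 array per time point, and grey points the single spots of Tgfb1 and Tgfb3. The brightest probes of the ligands lie between 0.44 and 0.67, that of Ltbp2 lies at -1.23, and the brightest probes of Tgfbr1 and Tgfbr2 lie within their error of 0, where the sign of Tgfbr1 changes with the scaling.

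Of the 10 genes, 1 was higher past 1.5-fold, namely Tgfb2, against 3.65% of all detected genes, and 0 were higher past 2-fold, against 0.668%. Ltbp2 was the 1 gene lower past 2-fold, against 1.83% of all detected genes, and also the 1 gene lower past 1.5-fold, against 5.84%. When a ratio had to pass the fold by more than 2 within-array errors, 0 genes were lower past 2-fold and 0 higher past 1.5-fold, so neither the 2-fold call of Ltbp2 nor the call of Tgfb2 was kept. A single call in a group of 10 genes is too few to be set apart from these shares. As a description chosen after the data were seen, 4 of the 10 genes were higher by more than 2 within-array errors, against 7.24% of all detected genes, and 1 was lower by as much, against 9.12%. The 4 are the ligand genes and Ltbp3, and Tgfb1 and Ltbp3 passed narrowly, at 2.13 and 2.21 errors. The shares of all detected genes were not matched for brightness, and a bar of 2 errors is stricter for dim genes. For the 10 genes the median log2 ratio came to 0.21, and for all detected genes to -0.01. The spots of the brightest probes had at most 2 neighbours within 100 µm that were changed more than 2-fold in one direction.

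These shares depend on the scaling of the arrays. Scaling to spike-in controls raised the median of all detected genes by 0.12 and scaling to array medians by 0.098. Past 2-fold, 95 of all detected genes were higher and 260 lower, and this became 130 and 205 with scaling to medians and 138 and 186 with scaling to spike-in controls. Past 1.5-fold, 520 were higher and 831 lower, which became 803 and 614 with scaling to medians and 871 and 573 with scaling to spike-in controls. Relative to the median of all detected genes, which removes such a shift, the ratios were 0.68 for Tgfb2, 0.55 for Tgfb3, 0.46 for Tgfb1 and -1.21 for Ltbp2.

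Genes that process, store or activate latent TGF-β had ratios on both sides of 0, most of them above. Of 23 listed, 18 were detected, 14 of them with a ratio above 0, against 6776 of all 14231 detected genes. The median was 0.13, against -0.01 for all detected genes. With scaling to array medians these became 0.22 and 0.08, and with scaling to spike-in controls 0.24 and 0.10. Past 1.5-fold, 2 were higher, against 3.65% of all detected genes, and 0 were lower, against 5.84%. Past 2-fold, 0 were higher, against 0.668%, and 0 were lower, against 1.83%. By more than 2 within-array errors, 3 of the 18 were higher, against 7.24%, and 0 lower, against 9.12%. The highest was Lrrc32, whose product GARP displays latent TGF-β on the cell surface, with intensities of 3385 and 5405 and a log2 ratio of 0.68 (within-array error 0.20). The other was Plat, tissue plasminogen activator, named because it makes up this count after its values were seen. It had intensities of 83.4 and 132 and a ratio of 0.67 with an error of 0.22. With normexp correction Lrrc32 (0.74) was the 1 gene of the pathway lists higher past 1.5-fold, against 1.92% of all detected genes, so Plat came inside it. The lowest was Nrros, which tethers latent TGF-β in myeloid cells, with intensities of 136 and 110 and a ratio of -0.31.

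Furin, the protease that cleaves the TGF-β propeptide, had intensities of 6420 and 8178 and a log2 ratio of 0.35 with an error of 0.20. Thbs1, or thrombospondin-1, an activator of latent TGF-β, had a ratio of 0.20. Fbn1, the fibrillin to which latent complexes are attached, had a ratio of 0.18. Both lay within their error of 0.20 here, but Thbs1 reached 0.34 with quantile normalization and Fbn1 reached 0.29 with scaling to spike-in controls. Itgav encodes the αv integrin chain that takes part in activation, and its probes had ratios of 0.12 and -0.15 with a mean of -0.01, so it has no settled direction. Its partner Itgb8 was not well above background, nor were Itgb6, Mmp9 and Plg. Plau was well above background on 1 array, with intensities of 21.5 and 25.1.

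Among co-receptors and extracellular inhibitors, 13 of 14 listed genes were detected, 8 with a ratio above 0, and the median was 0.06. It became 0.16 with scaling to array medians and 0.18 with scaling to spike-in controls. Fst was the 1 gene lower past 2-fold, against 1.83% of all detected genes, and 0 genes were higher past 1.5-fold, against 3.65%. By more than 2 within-array errors, 4 of the 13 were higher, against 7.24%, and 1 was lower, against 9.12%. Fst encodes follistatin, which binds activins and keeps them from their receptors. Its intensity was 4180 before loading and 2074 at 24 h, a log2 ratio of -1.01 with an error of 0.20. It came inside 2-fold with normexp correction and with spike-in, median, quantile and loess scaling, where its highest ratio was -0.89. The related Fstl3 was the highest of the list, with intensities of 491 and 699 and a ratio of 0.51. Bgn, or biglycan, a small proteoglycan that can bind TGF-β, had a ratio of -0.28 with an error of 0.20. This ratio came within its error with spike-in scaling (-0.16) and median scaling (-0.18). Dcn, or decorin, which also binds TGF-β, had 0.04. The co-receptor Eng, or endoglin, had 0.06 and the type I receptor Acvrl1 had 0.08, so these 3 genes lay within their errors of 0. Bambi, a decoy receptor, was not well above background.

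Intracellular mediators were centred near 0. All 20 listed Smads and regulators were detected, 7 with a ratio above 0 and 13 below, with a median of -0.08 that became 0.02 with scaling to array medians and 0.04 with scaling to spike-in controls. Past 1.5-fold, 0 were higher and 1 of the 20 was lower, close to the 5.84% of all detected genes. By more than 2 within-array errors, 1 of the 20 was higher and 2 were lower, near the 7.24% and 9.12% of all detected genes. The 1 past 1.5-fold was Smad7, an inhibitory Smad that is itself switched on by TGF-β. Its intensity was 357 before loading and 212 at 24 h, a log2 ratio of -0.75 with an error of 0.21. With normexp correction the ratio of Smad7 was -0.57, which is inside 1.5-fold. Of the Smads that carry the signal, Smad3 had intensities of 5412 and 3984 and a ratio of -0.44 with an error of 0.20, and -0.71 on its dimmer probe. Smad2 had a ratio of -0.18, within its error of 0.20. Smad4 had intensities of 4451 and 4445, and its sign changed with the setting. The repressor Skil had -0.17 over 8 spots of its brightest probe, with an SD over spots of 0.08, and -0.43 on a dimmer probe. The related Ski was the highest of the list, with intensities of 92.4 and 127 and a ratio of 0.46 (error 0.22).

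Most genes known to be induced by TGF-β had lower ratios 24 h after loading. The list holds 26 genes, all detected, and 3 of them (Tgfb1, Ltbp2 and Ltbp3) are described above and were left out here. Of the other 23, 18 had a ratio below 0 and 5 above, against 7455 below 0 among all 14231 detected genes, and the median was -0.30. Across the settings run, this median of 23 genes lay between -0.32 and -0.16. With the 3 genes kept in, the median was -0.23. Past 1.5-fold, 0 were higher and 3 of the 23 were lower, against 5.84% of all detected genes, namely Bhlhe40 (-0.77), Smad7 and Lox (-0.61), of which Bhlhe40 and Lox were chosen after their values were seen. Lox has a second probe at -0.54, which is inside 1.5-fold. With scaling to medians or spike-in controls, 3 rather than 4 pathway genes were lower past 1.5-fold, against 4.31% and 4.03% of all detected genes. With normexp correction 2 were, against 3.03%, namely Fst (-0.95) and 1 other gene, and Smad7 was not among them. By more than 2 within-array errors, 9 of the 23 were lower, against 9.12% of all detected genes, and 1 was higher, against 7.24%. With the 3 genes kept in, 10 of 26 were lower and 3 higher. Over all 5 lists without the 10 genes, 12 of 79 were lower and 10 higher by this description. Both counts lie above the 9.12% and 7.24% of all detected genes, which were not matched for brightness.

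Tgfbi and Ccn2, which are often used as readouts of TGF-β, were lower by less than 1.5-fold. They are named from the 23 induced genes, of which 18 had a ratio below 0 and 5 above. The highest of the 23 was Postn, with intensities of 550 and 738 and a log2 ratio of 0.43 (error 0.20). Tgfbi, a matrix protein named for its induction by TGF-β, had intensities of 41808 and 31080 and a log2 ratio of -0.43 with an error of 0.20. Ccn2, or connective tissue growth factor, had intensities of 94116 and 76443 and a ratio of -0.30 with an error of 0.20. Its ratio came within this error with spike-in, median, loess and quantile scaling, and reached -0.16 with quantile normalization. In all, the 5 lists hold 88 other genes of the pathway, of which 79 were detected. Past 1.5-fold, 2 of the 79 were higher and 4 lower, and past 2-fold 0 were higher and 1 was lower. Set against 3.65% and 5.84% of all detected genes past 1.5-fold, and 0.668% and 1.83% past 2-fold, these fold counts do not stand out, while the counts by 2 within-array errors lie above their shares. Those shares include dim genes, for which 2 errors is a stricter bar, and the part of brightness in the difference was not tested.

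**Figure D2:**
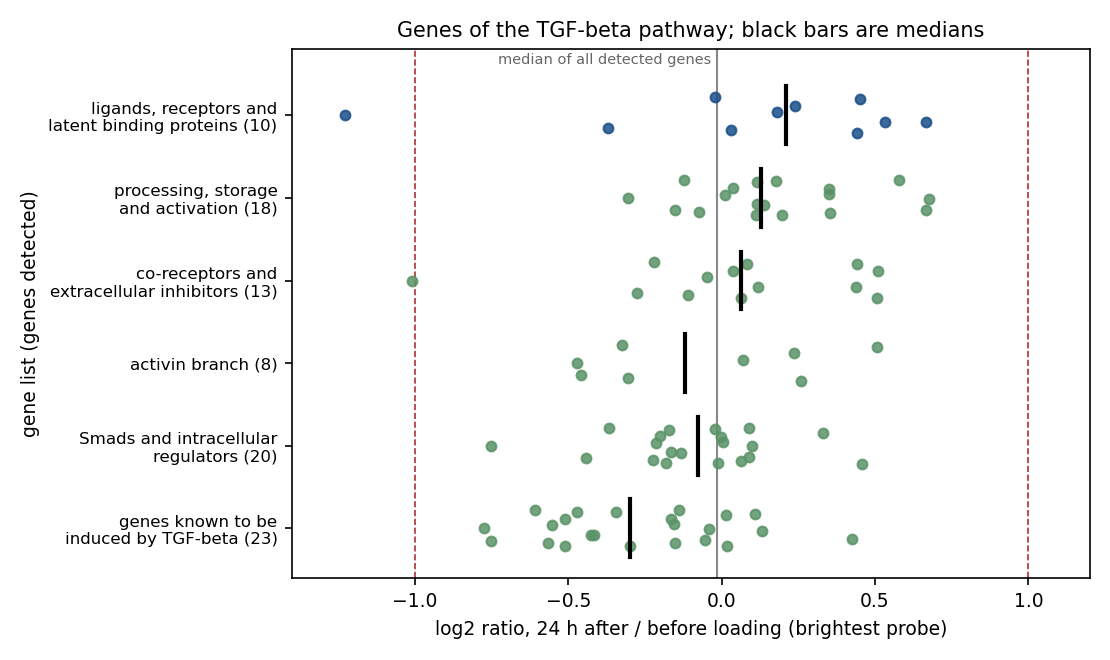
Log2 ratio of intensity, 24 h after over before loading, on the x axis for the detected genes of each list on the y axis, 1 array per time point, with a point per gene at its brightest probe and a black bar at the median of each list. The grey line is the median of all detected genes (-0.01) and the dashed lines mark 2-fold. The 10 genes have a median of 0.21 and the induced genes one of -0.30, the sign of the Smads and regulators (-0.08) changes with scaling to medians or spike-in controls, and that of the activin branch (-0.12) changes with normexp correction, with either looser filter and without disturbed spots.

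Markers of other cells also differed between the arrays. Of 5 listed adipocyte markers 3 were detected, all of them higher past 1.5-fold, against 3.65% of all detected genes. The summed intensity of the list was 883 before loading and 1842 at 24 h. Its brightest gene was Fabp4, with intensities of 746 and 1440, while Cidec and Lep were not well above background. Of 5 platelet and megakaryocyte markers, which matter because platelets store TGF-β1, 3 were detected, and the summed intensity of all 5 was 656 before loading and 432 at 24 h. The brightest was Pf4, with intensities of 418 and 188, and Ppbp and Gp9 were not well above background. Gp1bb had intensities of 193 and 205 and a log2 ratio of 0.09, with 0.19 and 0.01 on its dimmer probes. Itga2b had a ratio of -0.26, within its error of 0.34. Of 5 osteoblast markers, 4 had a probe and 3 were detected, and the summed intensity of the 4 was 34800 before loading and 33610 at 24 h, with Col1a1 as the brightest, which is on the fibroblast list as well. The other detected markers were lower, Ibsp with intensities of 259 and 61.9 and Sp7 with 78.8 and 50.5, the median log2 ratio of the list was -0.64, and Dmp1 was not well above background. Of 7 fibroblast markers all 7 were detected, with summed intensities of 136869 and 137728 and Col1a2 as the brightest. Past 2-fold, 1 of the 7 was higher, against 0.668% of all detected genes, namely Dpt, with intensities of 59.2 and 253. Of 8 macrophage and leukocyte markers, 7 had a probe and 6 were detected, and the summed intensities of the 7 were 29704 and 28796. Of the 6, 4 had a ratio above 0, and the median was 0.15. By more than 2 within-array errors, 2 were higher and 0 lower, against 7.24% and 9.12% of all detected genes. The brightest was Itgam, with intensities of 25496 and 24759, whose other probes were dim, and Aif1 was not well above background. Csf1r had intensities of 3646 and 3288 and a log2 ratio of -0.15, with 0.20 and 0.27 on its dimmer probes. Lyz2 went from 367 to 506, a log2 ratio of 0.46 with an error of 0.20. Ptprc was 20.9 before loading and 46.1 at 24 h at a spot with 6 neighbours more than 2-fold higher. Endothelial markers had 2 of 7 genes detected and summed intensities of 12906 and 12534 over all 7, with Kdr as the brightest, whose other probe was not well above background. Skeletal muscle markers had 4 of 6 detected, with sums of 1327 and 1246 over all 6 and Acta1 as the brightest, while Myh3 went from 217 to 339, and Ckm and Des were not well above background. Tenocyte markers had 3 of 3 detected, with sums of 2668 and 2094. The brightest, Scx, had a log2 ratio of -0.44, Tnmd had 0.52 with an SD over spots of 0.49, Mkx had 0.21 with an error of 0.21, and the median of the list was 0.21. Erythroid markers had 1 of 5 detected, Hba-a1, with sums of 83.3 and 89.7 over all 5. The part of these markers in the results above was not tested.

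The promoters of Tgfb2 and Ltbp2, which had the highest and the lowest log2 ratio of the 10 genes, are shown with that of Tgfb1, a ligand gene that was higher alongside Tgfb2. They are the 250 bases before the RefSeq transcription start on GRCm38.p6, a later build than the mm9 of the array design, and 8 of the 10 genes matched the table of promoters. They are written in the direction of the gene, with matches in capitals. A total of 4 motifs were searched on both strands: the GC box GGGCGG, bound by Sp1 and its relatives, the Smad binding element CAGAC, the TATA box TATAAA and the AP-1 site TGANTCA. Over 32851 promoter windows of the same length, 32.7% held GGGCGG, 42.2% CAGAC, 12.4% TATAAA and 6.75% TGANTCA. Tgfb1 lies on the forward strand at chr7:25686752-25687001, Tgfb2 on the reverse strand at chr1:186705990-186706239 and Ltbp2 on the reverse strand at chr12:84876492-84876741.
Tgfb1: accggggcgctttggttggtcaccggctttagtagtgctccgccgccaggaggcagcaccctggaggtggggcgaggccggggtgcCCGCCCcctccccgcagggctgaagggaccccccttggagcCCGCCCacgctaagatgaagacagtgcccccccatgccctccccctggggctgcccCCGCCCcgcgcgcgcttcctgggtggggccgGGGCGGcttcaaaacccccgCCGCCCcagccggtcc
Tgfb2: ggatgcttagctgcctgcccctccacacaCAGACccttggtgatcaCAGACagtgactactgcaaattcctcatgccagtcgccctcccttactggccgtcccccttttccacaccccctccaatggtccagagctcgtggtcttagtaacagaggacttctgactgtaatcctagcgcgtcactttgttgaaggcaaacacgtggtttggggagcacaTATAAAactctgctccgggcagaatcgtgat
Ltbp2: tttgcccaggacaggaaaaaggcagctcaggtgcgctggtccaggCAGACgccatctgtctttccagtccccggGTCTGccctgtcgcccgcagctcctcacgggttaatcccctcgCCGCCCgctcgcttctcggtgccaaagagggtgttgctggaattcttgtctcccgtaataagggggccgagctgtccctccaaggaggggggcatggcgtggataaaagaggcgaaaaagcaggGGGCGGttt
The Tgfb1 window is rich in G and C, at 75.2%, and held 5 GC boxes and 0 matches of the other motifs. The Tgfb2 window, with 53.6% G and C, held 1 TATA box, 2 CAGAC and 0 GC boxes. The Ltbp2 window, with 61.6%, held 2 GC boxes and 2 CAGAC. No matches overlapped in these windows. Of the 12 windows held for 8 of the 10 genes, 6 had a GC box, 7 had CAGAC, 1 had TATAAA and 0 had TGANTCA. Tgfb3 and Tgfbr3 had no window. The windows are not independent, since those of Ltbp4 at chr7:27333649-27333898 and chr7:27333664-27333913 overlap, and every Ltbp4 window had a GC box. A match is a description of letters, and the binding of factors was not measured.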

How the data were processed

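RNA of 1 culture group per time point was labelled with Cy3 and hybridised to 1 array each on a shared slide. For every spot the authors deposited an intensity as processed by Agilent Feature Extraction 10.10.1.1, after background subtraction and with no normalization between arrays stated, and a table of the same intensities rounded, which differed by at most 0.497%. Control spots and spots marked as outliers on either array (141 and 138) were left out, and the log2 intensities of a probe's spots were averaged, leaving 55678 probes. Of these, 27235 were named through RefSeq accessions without versions (GRCm38.p6, used for names only). Of the spots, 59.1% before loading and 57.7% at 24 h were well above background. The named genes are the 10 members with all probes, the extremes and genes past 2-fold of each pathway list, and fixed pathway and marker genes. Plat, Bhlhe40, Lox, Postn, Gdf11 and some marker genes were named after their values were seen. The members and lists were chosen with earlier results of these data known. A total of 12 other settings were run, and 1 description was added after seeing the data. Some genes of the lists are not reported here by name. On simulated arrays, the 2-fold call recovered every change put in, all of them well past 2-fold, and called no unchanged gene. Changes of that size had to pass, so this says nothing about calls near 2-fold, such as that of Fst. Spot positions were converted at 3 µm per pixel. Loess used a span of 0.3 and normexp an offset of 50 on the median spot intensity. Software was Python 3.11.15, numpy 2.4.6, pandas 2.3.3, scipy 1.17.1, statsmodels 0.14.6, matplotlib 3.10.9, R 4.3.3 and limma 3.58.1.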

Additional observations from a re-analysis of the deposited data

How the results depend on the processing

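Pairing was not possible, as each time point has 1 array. Log2 ratios of Tgfb1 (0.38 to 0.56), Tgfb2 (0.67 to 0.78), Tgfb3 (0.53 to 0.65), Tgfbr3 (0.24 to 0.36), Ltbp1 (-0.37 to -0.25), Ltbp2 (-1.23 to -1.11), Ltbp3 (0.29 to 0.57) and Ltbp4 (0.18 to 0.29) kept their sign and moved by less than the within-array error under the 11 settings run for them. Several of these settings could hardly move a ratio. Leaving out the scaling shifted the median of all detected genes by -0.000681, and the authors' table holds the same intensities rounded. The looser filters leave the ratio of a detected gene as it was. Scaling to medians or to spike-in controls adds the same 0.098 or 0.12 to every ratio, less than the error of these genes. The median of the 10 genes stayed above 0 but rose from 0.21 to as much as 0.33, with scaling to spike-in controls. Tgfbr2 moved by less than its error but was -0.06 as the mean over probes, and Tgfbr1 came to 0.29 as the mean over probes, since its dimmer probe differs.

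Of the 10 genes, 2 were higher past 1.5-fold with scaling to medians and 2 with scaling to spike-in controls, because Tgfb3 then passes. When a ratio had to pass the fold by more than 2 within-array errors, 0 were lower past 2-fold and 0 higher past 1.5-fold, against 0.668% and 0.555% of all detected genes, while Ltbp2 stayed lower past 1.5-fold (1.58%). Of the other pathway genes, 0 were lower past 2-fold with quantile, loess, median, spike-in or normexp processing. The shares of all detected genes were 1.57%, 1.63%, 1.44%, 1.31% and 0.829%. Those higher past 1.5-fold numbered 4 with quantile normalization, 6 with scaling to medians, 6 with scaling to spike-in controls, 1 with normexp, which also gave 2 lower past 1.5-fold, and 4 with no filter on dim probes. The share of all genes higher past 1.5-fold moved with them, from 3.65% to 4.48%, 5.64%, 6.12% and 1.92% of detected genes, and to 6.32% of all 20660 genes with a probe where no filter was used. Those lower past 1.5-fold numbered 3 with scaling to medians or spike-in controls and as means over probes. Those higher past 2-fold numbered 1 when being well above background on a single array was enough and 2 with no filter, both of which add dim probes. The cause of the other changes was not tested. By the description of 2 within-array errors, 3 genes were higher with normexp and 3 as means over probes, against 4. Of 264 values for 24 named pathway genes, 263 moved by less than the within-array error. As for the 10 genes, several settings could not have moved a ratio by that much.

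Dim genes are limited by signal over background, where the faintest spots still well above it read 17.3 before loading and 17.8 after. For 268 detected probes with 8 spots or more, the median SD between spots was 0.087 in log2 ratio, and the within-array error had a median of 0.20 over detected genes.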

Other observations

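The activin branch signals through the same Smad2 and Smad3 as TGF-β, with its own ligands and receptors. Of 11 listed genes, 8 were detected, 4 with a ratio above 0 and 4 below. Past 1.5-fold, 0 were higher and 0 lower, against 3.65% and 5.84% of all detected genes. By more than 2 within-array errors, 1 was higher and 1 lower, against 7.24% and 9.12% of all detected genes. The median was -0.12, and it lay between -0.12 and 0.07 across the settings run, so it has no settled direction. Inhba, the activin βA subunit, was lower, with intensities of 1258 before loading and 916 at 24 h and a log2 ratio of -0.46 (within-array error 0.20). Inhbb, the activin βB subunit, was the highest detected gene of the list, with intensities of 116 and 165 and a log2 ratio of 0.51 with an error of 0.22. The lowest was Inhbc, a dim probe with intensities of 35.0 and 25.2 and a ratio of -0.47 with an error of 0.34, which came to -0.05 with normexp correction. Neither Mstn nor Acvr1c was well above background.

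Gdf11, a close relative of myostatin, was not well above background before loading, at an intensity of 13.0, and was 96.1 at 24 h. No fold is given, because its level before loading is not known. The spot had 3 neighbours within 100 µm that were also more than 2-fold higher at 24 h, and the part of these neighbours in its value was not tested. It was named after its values were seen.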
